A study of Mus musculus with 4 samples.

Results

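The genes described here were 10 components of the machinery that times chromosome separation: 6 of the spindle assembly checkpoint (*Mad1l1*, *Mad2l1*, *Bub1*, *Bub1b*, *Bub3*, *Ttk*), securin and separase (*Pttg1*, *Espl1*), and 2 Aurora kinases (*Aurka*, *Aurkb*). They were taken by symbol from the 55401 gene identifiers counted in each library. RNA came from SSEA-1-positive germ cells that were sorted by FACS from ovaries of female E18.5 fetuses (the embryonic day). The ICR mothers had been kept for 4 months on normal chow (ND) or on a diet rich in fat (HFD) and were then mated with ND males, so the fathers' diet was shared by both groups. Each diet was represented by 2 SMART-Seq2 libraries of polyadenylated RNA, and each library was a pool of oocytes from several fetuses. The sample labels name the cells primordial germ cells, whereas the description of the series calls them fetal oocytes. The labels do not say whether the pools of a group came from separate litters, so p-values measure only the spread between these libraries.

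In a dividing cell, a kinetochore without a spindle attachment recruits Mps1 (encoded by *Ttk*), Bub1 and the Mad1-Mad2 complex, and the resulting signal keeps Cdc20 from activating the anaphase-promoting complex. Once all kinetochores are attached, this ubiquitin ligase marks securin and cyclin B for destruction, and separase, freed from securin, cleaves cohesin. Aurora A acts at spindle poles, and Aurora B corrects faulty attachments at centromeres. Fetal oocytes around birth are in meiotic prophase and divide only after meiosis resumes in the adult ovary, so they hold no meiotic spindle while these transcripts are measured. The comparison of diets asks whether the transcripts of this machinery differ between fetal oocytes of ND and HFD mothers.

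The promoters are shown first, because many genes of this machinery share promoter elements that tie their transcription to the cell cycle. The elements searched were the cell cycle genes homology region (CHR), as TTTGAA or TTCGAA, and the CCAAT box, as CCAAT, each on both strands, in RefSeq windows (GRCm38.p6) from 250 bases before to 50 bases after each annotated start. Windows were found for 9 of the 10 genes, all but *Aurkb*. TTTGAA was present for 5 of the 9 and in 17.9% of all 32851 windows, TTCGAA for 2 and in 1.56%, and CCAAT for 6 and in 37.4%. A gene counts when any of its windows holds the letters, whereas the shares of all windows count each window. The units thus differ, and a gene with several starts has more windows to match. The 6 genes with a CHR also held a CCAAT box, a combination found in 7.52% of all windows and for 13 of 43 related spindle, kinetochore and anaphase genes (30.2%). The printed CHR matches shared no base with a CCAAT match. The windows of *Mad1l1*, *Mad2l1* and *Pttg1* held none of these letters. The CHR matches are printed below on the strand of the gene, with 12 bases on each side where the window allowed and the match in capitals, and capitals that read TTCAAA are TTTGAA on the other strand. Each distance is that of the first base of the match, and the start base itself is counted as the first base after the start.
*Bub1*, 15 bases after the start, chr2:127831828-127831857, minus strand: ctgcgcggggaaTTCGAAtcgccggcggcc
*Bub1b*, 41 bases after the start, chr2:118598239-118598260, plus strand: agagacgttaaaTTTGAAactt
*Bub1b*, 188 bases before the start, chr2:118598011-118598040, plus strand: tctctccctgggTTCGAAggcttgtcttag
*Bub3*, 43 bases before the start, chr7:131560315-131560344, plus strand: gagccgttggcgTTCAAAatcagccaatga
*Ttk*, 8 bases after the start, chr9:83834684-83834713, plus strand: cagcggggaaatTTCAAAcgtgtttccgga
*Espl1*, 27 bases before the start, chr15:102296254-102296283, plus strand: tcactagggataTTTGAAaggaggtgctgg
*Aurka*, 33 bases after the start, chr2:172370521-172370550, minus strand: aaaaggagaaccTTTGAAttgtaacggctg

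In GENCODE M21 these matches lay in an untranslated part of an exon, except the *Bub1b* match before the start, which lay upstream of the gene, and the *Aurka* match, of which 3 of 6 bases lay in the exon and the others upstream. *Bub3* has a second RefSeq start, from which the same match lies 167 bases upstream. Starts differ between the annotations, so that a match before a RefSeq start can lie in a GENCODE exon. A match is a description of letters and not of binding. In the values below, both HFD values lay below both ND values for *Bub1*, *Ttk* and *Aurka*, with a CHR match, and for *Mad2l1*, without one, while the diets overlapped for *Bub1b*, *Bub3* and *Espl1*, with a match, and for *Mad1l1* and *Pttg1*, without.

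**Figure D1:**
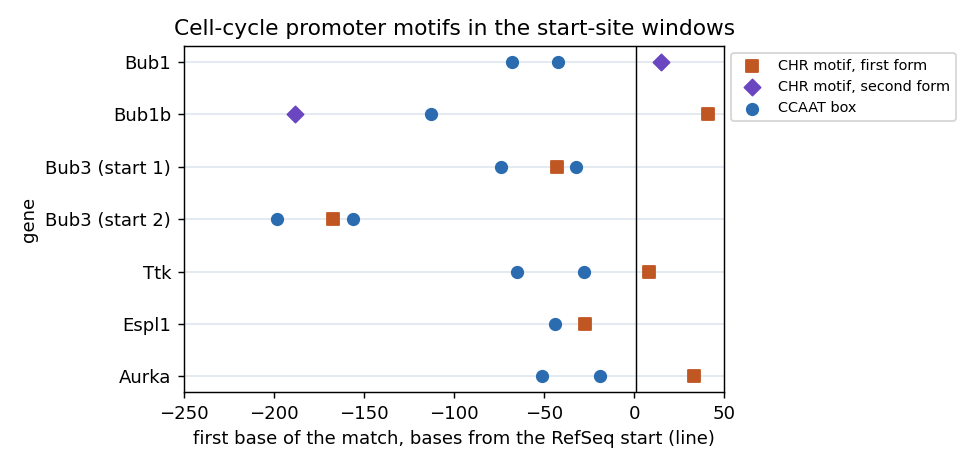
Positions of CHR matches (squares for TTTGAA, diamonds for TTCGAA) and CCAAT matches (circles), in bases from the RefSeq start on the horizontal axis, for the 6 genes with a match, with both starts of *Bub3*. Each of the 6 genes holds both elements, and *Mad1l1*, *Mad2l1* and *Pttg1*, whose windows held neither, are not drawn.

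Total counts were 8223255 and 7815015 in ND replicates 1 and 2 and 6456825 and 5723605 in HFD replicates 1 and 2, so 3 counts stood for 0.365 to 0.524 CPM (counts scaled to a library total of 1000000). Levels between genes are given as RPKM, that is CPM per kilobase of exon. The exon length is the union of all annotated exons of a gene, so a gene whose transcripts use only part of it lies lower. For *Mad2l1* it is 8390 bases in a span of 11831, and the part of this length in its detection was not tested. A gene was taken as above background in a library when it had more than 3 counts and its reads per kilobase exceeded the 99th percentile of 1135 olfactory receptor genes, which oocytes are not known to use. This limit stood at 1.03 and 1.15 RPKM in the ND libraries and at 1.15 and 2.19 RPKM in the HFD libraries, and 24.9%, 22.1%, 13.3% and 15.2% of 21897 protein-coding genes passed it, in the order of the totals. Germ cell markers were above it in 8, 8, 8 and 7 of 10 cases with summed levels of 3117, 5722, 5408 and 2083 CPM. The markers did not share a direction, since 1 of them lay lower in HFD at an unadjusted p under 0.05 in edgeR (*Ddx4*, an RNA helicase, 5.96, 12.4, 0.774 and 2.45 CPM) and 3 lay higher (*Sycp1*, of the synaptonemal complex, 4.38, 6.14, 1400 and 1394 CPM, and the oocyte transcription factors *Figla*, 0.973, 1.66, 611 and 51.7 CPM, and *Nobox*, 1.70, 6.40, 1278 and 567 CPM), and their median log2 fold change was −0.01. Markers of other cells were present as well. Stromal markers summed to 2842 and 67.4 CPM in the ND and 2220 and 7674 CPM in the HFD libraries (6, 4, 3 and 5 of 8 above background), and pregranulosa markers to 27.2 and 407 CPM against 16.6 and 2077 CPM (1, 3, 0 and 3 of 8). Blood markers reached 1973 CPM in ND replicate 1 and at most 10.8 CPM elsewhere (3, 0, 0 and 1 of 6, where each globin gene had 0 to 3 counts outside ND replicate 1), endothelial markers lay between 15.2 and 696 CPM (0, 1, 2 and 1 of 4), and macrophage markers between 10.2 and 36.2 CPM (0, 1, 0 and 1 of 5, with *C1qa* at 0 in ND replicate 1). Markers of proliferating cells summed to 597 and 84.2 CPM in the ND and 2367 and 63.2 CPM in the HFD libraries (4, 4, 3 and 1 of 7). The part of these cells in the values below was not tested, and in bulk RNA fewer cells of a type and less RNA per cell cannot be told apart.

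More of the 10 genes were above background in each ND library than in either HFD library. These were 8 and 7 of the 10 in ND replicates 1 and 2, and 4 and 2 in HFD replicates 1 and 2. Their summed level was 1041 and 2242 CPM in the ND libraries against 444 and 66.9 CPM in the HFD libraries, so both HFD sums lay below both ND sums. A single gene carried most of the sum in 3 libraries, and it was not the same gene: *Bub1* took 58.1% of the members' counts in ND replicate 1 (exact 95% interval 57.1% to 59.2%), *Pttg1* 96.7% in ND replicate 2 (96.4% to 97.0%) and *Bub3* 65.0% in HFD replicate 1 (63.2% to 66.8%). In HFD replicate 2 *Pttg1* led with 29.5% (25.0% to 34.3%). Such intervals describe counting error alone, because SMART-Seq2 reads have no molecular tags. Whether the difference in detection is particular to these genes was not tested, and the share of all protein-coding genes above background was likewise smaller in both HFD libraries. The background limit was also highest in HFD replicate 2, at 2.19 RPKM.

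**Figure D2:**
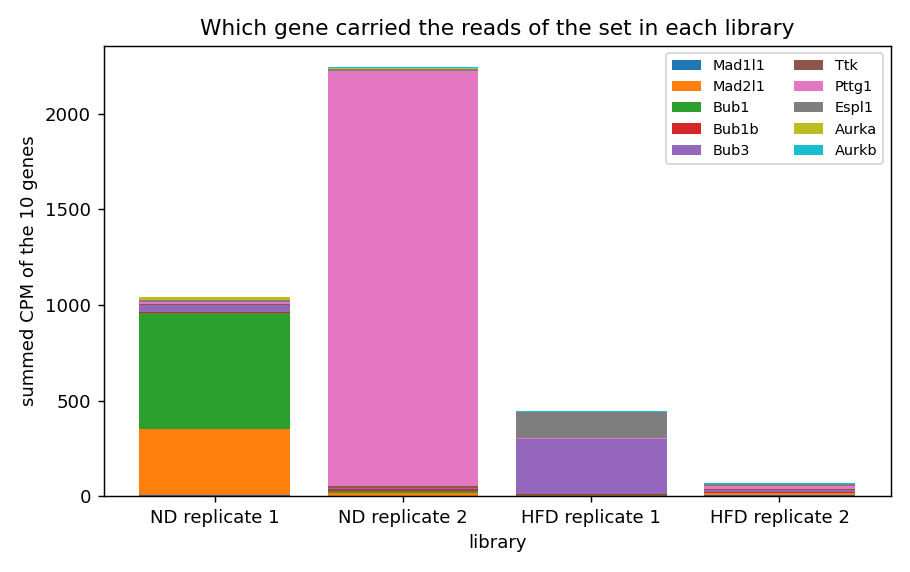
Summed CPM of the 10 genes in each library (vertical axis), with each gene's part stacked in its own colour. The sums are 1041 and 2242 CPM in the ND libraries and 444 and 66.9 CPM in the HFD libraries, and a different gene makes up most of the sum in ND replicate 1 (*Bub1*), ND replicate 2 (*Pttg1*) and HFD replicate 1 (*Bub3*).

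**Figure D3:**
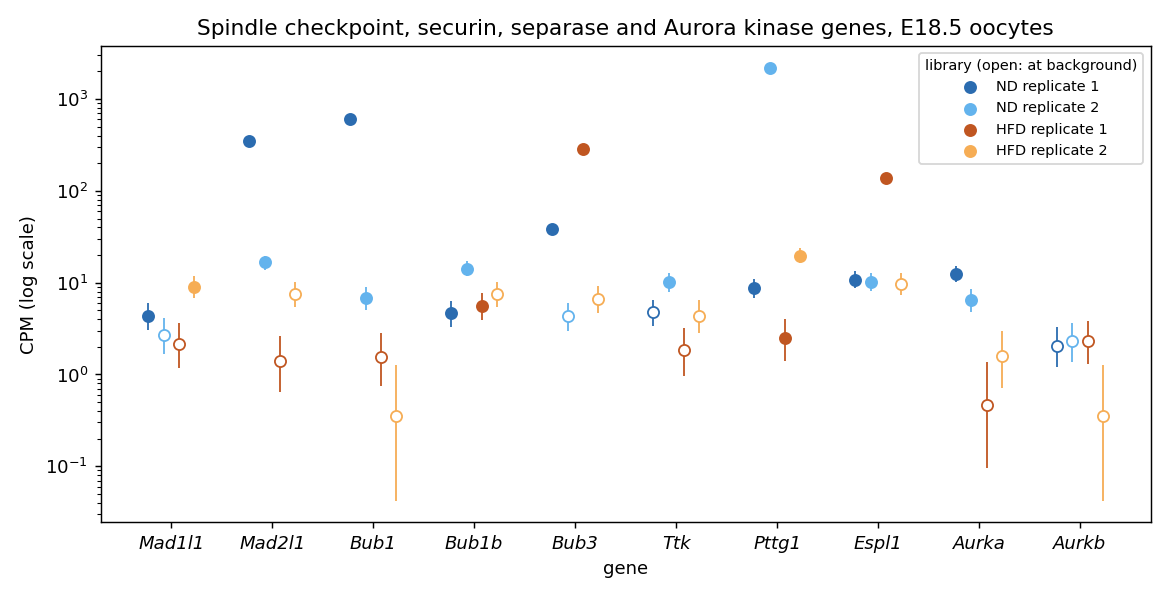
CPM of each gene in each library on a log axis, with exact 95% Poisson intervals and open symbols for values at background. Spread between libraries of one diet exceeds the counting error for most genes, and *Mad2l1*, *Bub1*, *Ttk* and *Aurka* have both HFD values below both ND values.

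No gene of the 19335 tested differed between the diets in edgeR's quasi-likelihood test at an adjusted p under 0.05 with a fold change over 1.5 (0% in either direction), and the smallest adjusted p of any gene was 0.406. None of the 10 genes was therefore called, and an exact permutation test of 2 libraries against 2 cannot give a p under 0.333. At an unadjusted p under 0.05, edgeR counted 2171 genes and limma-voom 750, while DESeq2 called 1360 genes higher and 1179 lower after adjustment. Of the 10 genes, 4 lay lower in HFD at an unadjusted p under 0.05 in edgeR (*Mad2l1*, *Bub1*, *Ttk* and *Aurka*), where 6.41% of all genes tested did, and 0 lay higher, where 4.82% did. The same 4 genes had both HFD values below both ND values, an order that 13.4% of all genes tested showed, and none had both above, the order of 13.9%. The fitted log2 fold change of HFD over ND was under 0 for 7 of the 10, against 48.5% of all genes, and the median over the 10 was −1.02, against 0.03 over all genes. DESeq2 gave an adjusted p to 6 of the 10 and called 3 of them lower (*Mad2l1*, *Bub1* and *Pttg1*) and none higher, beside 21.0% called lower of the 5601 genes with an adjusted p. Its adjusted p was 0.000603 for *Mad2l1*, 4.57e-05 for *Bub1* and 0.000242 for *Pttg1*, genes for which 1 library held 93.2%, 98.6% and 98.6% of the summed CPM. Run on the filterByExpr genes, DESeq2 gave an adjusted p to 9 of the 10 and called 4 lower, these 3 and *Aurka*, beside 11.1% called lower of 9589 genes. Housekeeping genes also lay lower by sign, at 5 of 6 with a median log2 fold change of −2.83, although none passed an unadjusted p under 0.05 in edgeR. Among them, *Eef1a1*, a translation factor, had 3496, 4717, 887 and 63.2 CPM and *Ppia*, cyclophilin A, 1151, 1573, 131 and 46.3 CPM, whereas *Actb*, the cytoplasmic actin, had 1922, 2045, 3749 and 5029 CPM. Their part in the values of the 10 genes was not tested. Counts over the 10 genes are descriptions, and no test was made on the set.

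Of the checkpoint genes, *Bub1* had the widest range. It encodes a kinase that marks kinetochores and centromeres for the other checkpoint proteins (ENSMUSG00000027379, chr2:127801122-127831865, minus strand, with a TTCGAA match in its promoter window). The 2 ND libraries held 4979 and 53 *Bub1* counts and the 2 HFD libraries 10 and 2, that is 605, 6.78, 1.55 and 0.349 CPM. ND replicate 1 thus held 98.6% of the summed CPM, 89.3 times the next library, and *Bub1* ranked 531 among its protein-coding genes by RPKM. The ND mean was 306 ± 423 CPM and the HFD mean 0.949 ± 0.848 CPM (SD, n = 2 for either diet). Although the groups did not overlap, ND replicate 2 was just 1.35 times its background limit and both HFD libraries were below theirs. The fitted log2 fold change was −7.94 (SE 2.98), with an unadjusted p of 0.0373 and an adjusted p of 0.406 in edgeR. Without ND replicate 1 it was −2.59, and without HFD replicate 1 it was −10.35.

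*Mad2l1* encodes Mad2, the protein that binds Cdc20 in the inhibitory complex (ENSMUSG00000029910, chr6:66535390-66547220, plus strand). Its counts were 2874 and 130 in the ND and 9 and 43 in the HFD libraries, or 349, 16.6, 1.39 and 7.51 CPM. As for *Bub1*, ND replicate 1 stood far above the rest, with 93.2% of the summed CPM and 40.4 times its background limit. ND replicate 2 was 1.72 times its limit, and the HFD libraries reached 0.144 and 0.41 times theirs. The means were 183 ± 235 CPM in ND and 4.45 ± 4.33 CPM in HFD (SD, n = 2 each), with a log2 fold change of −5.67 (SE 2.04, unadjusted p = 0.0331, adjusted p = 0.406 in edgeR). The fold change was −2.41 without ND replicate 1 and −6.69 without ND replicate 2.

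*Mad1l1* encodes Mad1, the kinetochore partner of Mad2 (ENSMUSG00000029554, chr5:140008689-140321552, minus strand), and its values did not follow those of *Mad2l1*. It had 36, 21, 14 and 52 counts, or 4.38, 2.69, 2.17 and 9.09 CPM, in the order ND replicates 1 and 2, HFD replicates 1 and 2. The diets overlapped, since the HFD libraries held both the lowest and the highest value. All 4 values lay within 0.516 to 1.16 times the background limits. The log2 fold change was 0.36 (SE 0.52, unadjusted p = 0.511, adjusted p = 0.843 in edgeR), and it was −0.19 without HFD replicate 2.

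*Ttk* encodes Mps1, the kinase that starts checkpoint signalling (ENSMUSG00000038379, chr9:83834689-83872389, plus strand, with a TTTGAA match). It had 39 and 79 counts in the ND and 12 and 25 in the HFD libraries, or 4.74, 10.1, 1.86 and 4.37 CPM. The groups did not overlap, but the lower ND and the higher HFD value were close, and only ND replicate 2 was above background, at 1.78 times the limit. The means were 7.43 ± 3.79 CPM and 3.11 ± 1.77 CPM (SD, n = 2 each), with a log2 fold change of −1.45 (SE 0.56, unadjusted p = 0.0411, adjusted p = 0.406 in edgeR). The value ranged from −2.01 to −0.79 with each library left out in turn.

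*Bub1b* encodes BubR1, which binds Cdc20 together with Mad2 and Bub3 (ENSMUSG00000040084, chr2:118598211-118641591, plus strand, with matches to both forms of the CHR). It was the most even of the checkpoint genes, with 38, 111, 36 and 43 counts, or 4.62, 14.2, 5.58 and 7.51 CPM. ND replicate 2 was the highest and ND replicate 1 the lowest, so the diets overlapped. Levels were 0.804 to 2.88 times the background limits, and above them in all but HFD replicate 2. The log2 fold change was −0.59 (SE 0.77, unadjusted p = 0.471, adjusted p = 0.821 in edgeR), and it was 0.48 without ND replicate 2.

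*Bub3* encodes the adaptor that brings Bub1 and BubR1 to kinetochores (ENSMUSG00000066979, chr7:131560222-131571895, plus strand, with a TTTGAA match). Its counts of 316, 34, 1862 and 38, or 38.4, 4.35, 288 and 6.64 CPM, alternated between the replicates of each diet. The highest value was in HFD replicate 1, at 35.7 times the background limit and 85.4% of the summed CPM. ND replicate 1 was 5.32 times its limit, and the other library of each diet was below its own. The ND mean was 21.4 ± 24.1 CPM and the HFD mean 148 ± 199 CPM (SD, n = 2 for either diet). The log2 fold change of 3.30 (SE 2.38, unadjusted p = 0.219, adjusted p = 0.601 in edgeR) rested on HFD replicate 1, since it was −2.36 without that library and 5.47 without ND replicate 1. Within the checkpoint, *Bub1* and *Mad2l1* therefore had their peak in ND replicate 1 and *Bub3* in HFD replicate 1, while *Mad1l1*, *Bub1b* and *Ttk* stayed at 14.2 CPM or less in every library.

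*Pttg1*, which encodes securin, the inhibitor and chaperone of separase, had the highest mean level of the 10 genes (ENSMUSG00000020415, chr11:43420250-43426251, minus strand). Its counts were 72 and 16949 in the ND and 16 and 113 in the HFD libraries, or 8.76, 2169, 2.48 and 19.7 CPM. ND replicate 2 held 98.6% of the summed CPM, 110 times the next library, and *Pttg1* ranked 95 among its protein-coding genes by RPKM. *Pttg1* was also the only one of the 10 above background in all 4 libraries, though in HFD replicate 1 by a factor of just 1.08. The diets overlapped, because HFD replicate 2 was above ND replicate 1. The means of 1089 ± 1527 CPM and 11.1 ± 12.2 CPM (SD, n = 2 each) and the log2 fold change of −7.10 (SE 3.21, unadjusted p = 0.0726, adjusted p = 0.406 in edgeR) rested on ND replicate 2. Without that library the log2 fold change was −0.14.

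*Espl1* encodes separase, the protease that cleaves cohesin at anaphase (ENSMUSG00000058290, chr15:102296266-102324357, plus strand, with a TTTGAA match). It had 89, 80, 887 and 56 counts, or 10.8, 10.2, 137 and 9.78 CPM. Apart from HFD replicate 1, which held 81.7% of the summed CPM and was 13.6 times its background limit, the libraries lay close together and near their limits, at 0.511 to 1.20 times. The means were 10.5 ± 0.415 CPM in ND and 73.6 ± 90.2 CPM in HFD (SD, n = 2 each), with a log2 fold change of 3.24 (SE 1.77, unadjusted p = 0.120, adjusted p = 0.461 in edgeR). It was −0.83 without HFD replicate 1. The library with the most *Espl1* was thus the one with the least *Pttg1*, and the library with the most *Pttg1* had *Espl1* at 1.01 times its background limit.

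*Aurka* encodes Aurora A, the kinase of spindle poles (ENSMUSG00000027496, chr2:172356190-172370535, minus strand, with a TTTGAA match). *Aurka* had the smallest p of the 10 genes in the main edgeR fit. It had 103 and 50 counts in the ND and 3 and 9 in the HFD libraries, or 12.5, 6.40, 0.465 and 1.57 CPM. Both ND values were above background, at 4.80 and 2.19 times the limit, and both HFD values were below it, at 0.159 and 0.284 times. The groups did not overlap, and the means were 9.46 ± 4.33 CPM for ND and 1.02 ± 0.783 CPM for HFD (SD, n = 2 for either diet). The log2 fold change was −3.44 (SE 0.59, unadjusted p = 0.000861, adjusted p = 0.406 in edgeR). With each library left out in turn it lay between −3.88 and −3.03. Run on all genes, DESeq2 gave *Aurka* an unadjusted p of 0.00978 and no adjusted p, and *Bub1*, *Pttg1* and *Mad2l1* had smaller p-values. Run on the filterByExpr genes, it gave *Aurka* an adjusted p of 0.000667 with a log2 fold change of −3.42. In limma-voom the unadjusted p was 0.0421 for *Aurka* and 0.0303 for *Bub1*. HFD replicate 1 was at the floor of 3 counts, with an exact 95% Poisson interval of 0.0958 to 1.36 CPM, so the size of the difference is limited by depth.

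*Aurkb* encodes Aurora B, the kinase of the chromosomal passenger complex (ENSMUSG00000020897, chr11:69045647-69051664, plus strand), and it was the only one of the 10 at background in every library. Its counts were 17, 18, 15 and 2, or 2.07, 2.30, 2.32 and 0.349 CPM, which is 0.0543 to 0.685 times the limits. HFD replicate 2 was lower than the other 3 libraries, which were alike, and its 2 counts gave an interval of 0.0423 to 1.26 CPM. The log2 fold change was −0.34 (SE 1.25, unadjusted p = 0.794, adjusted p = 0.957 in edgeR) and 0.58 without HFD replicate 2. The Aurora kinases thus differed in detection, since *Aurka* was above background in both ND libraries and *Aurkb* in none.

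**Figure D4:**
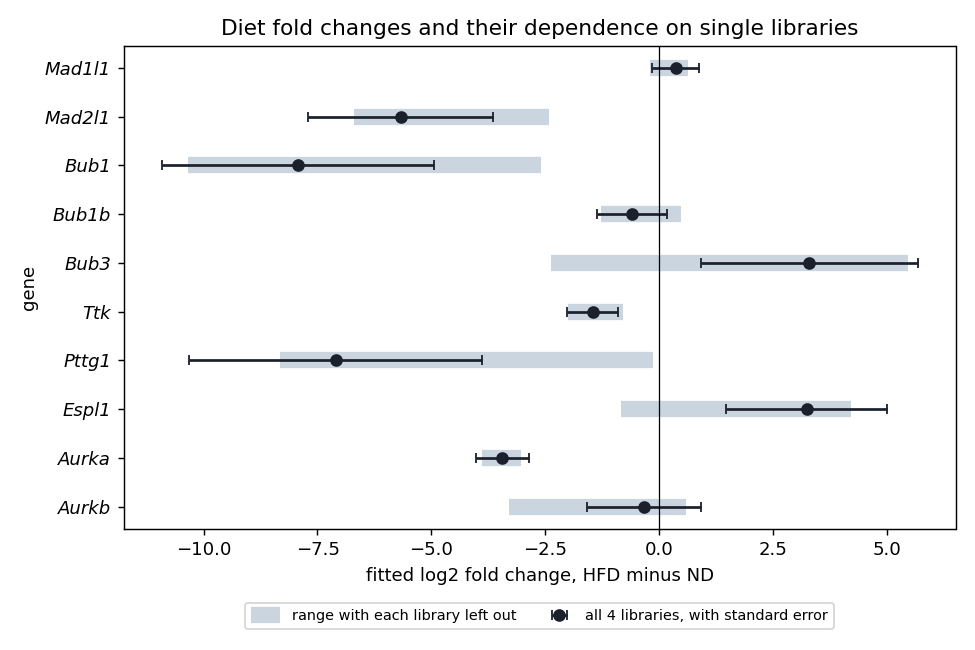
Fitted log2 fold change of HFD over ND for each gene (points, with standard error) and its range with each library left out in turn (grey bands). The band of *Aurka* runs from −3.88 to −3.03, that of *Pttg1* from −8.33 to −0.14, and the bands of *Mad1l1*, *Bub1b*, *Bub3*, *Espl1* and *Aurkb* cross 0.

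Ordered by mean RPKM over the 4 libraries, the genes ran from *Pttg1* (275 ± 540, SD, n = 4) through *Bub1* (35.3 ± 69.2), *Bub3* (12.1 ± 19.5), *Mad2l1* (11.2 ± 20.3), *Espl1* (4.81 ± 7.26), *Aurka* (2.07 ± 2.17), *Bub1b* (1.87 ± 1.01), *Mad1l1* (1.26 ± 0.863) and *Ttk* (1.07 ± 0.706) to *Aurkb* (0.598 ± 0.322). The ranges over libraries of every pair of neighbours in this order overlapped, so no step of it exceeded the spread. By the median, *Bub1* dropped from the second to the eighth place, at 0.957 RPKM. For 5 of the 10 genes a single library held over 80% of the summed CPM, which held for 13.1% of all genes tested. It also held for 11 of the 50 related genes described below. The median of the highest library's share was 70.7% over the 10 genes, 53.6% over the 50 related genes and 45.4% over all genes tested.

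Detection by library gave 3 of the 10 genes, *Mad2l1*, *Bub1* and *Aurka*, above background in both ND libraries and neither HFD library. This pattern was seen in 10.9% of the 9360 protein-coding genes above background in at least 1 library. The reverse pattern was seen in none of the 10 and in 1.68% of those genes. The related genes with the same pattern as these 3 were *Spc24*, *Pmf1*, *Cenpe* and *Tpx2*, which are 3 kinetochore genes and the activator of Aurora A, 4 of 50 in all. *Bub1b* and *Espl1*, in all but HFD replicate 2, shared their pattern with *Anapc2* and *Plk1*. *Bub3* shared its own, the first replicate of each diet, with *Anapc7*, *Cenpf* and *Cdk1*, and *Mad1l1*, in ND replicate 1 and HFD replicate 2, with *Anapc13*. *Ttk*, in ND replicate 2 alone, did so with 7 genes, among them *Aurkc* and *Haspin*. *Pttg1* shared detection in all 4 libraries with *Anapc11*, *Cdc16*, *Fbxo5*, *Ccnb1* and *Ccnb2*. These likenesses rest on 4 libraries each. They also depend on the limit, which was highest in HFD replicate 2, at 2.19 RPKM. There *Bub1b* was at background at 1.76 RPKM, whereas its 1.08 RPKM in ND replicate 1 was above. *Anapc2* likewise had 1.37 RPKM in HFD replicate 2 and 1.06 RPKM in ND replicate 1. *Espl1* had 1.12 RPKM in HFD replicate 2, close to its 1.17 RPKM in ND replicate 2, and *Plk1* had 1.91 and 1.92 RPKM there.

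**Figure D5:**
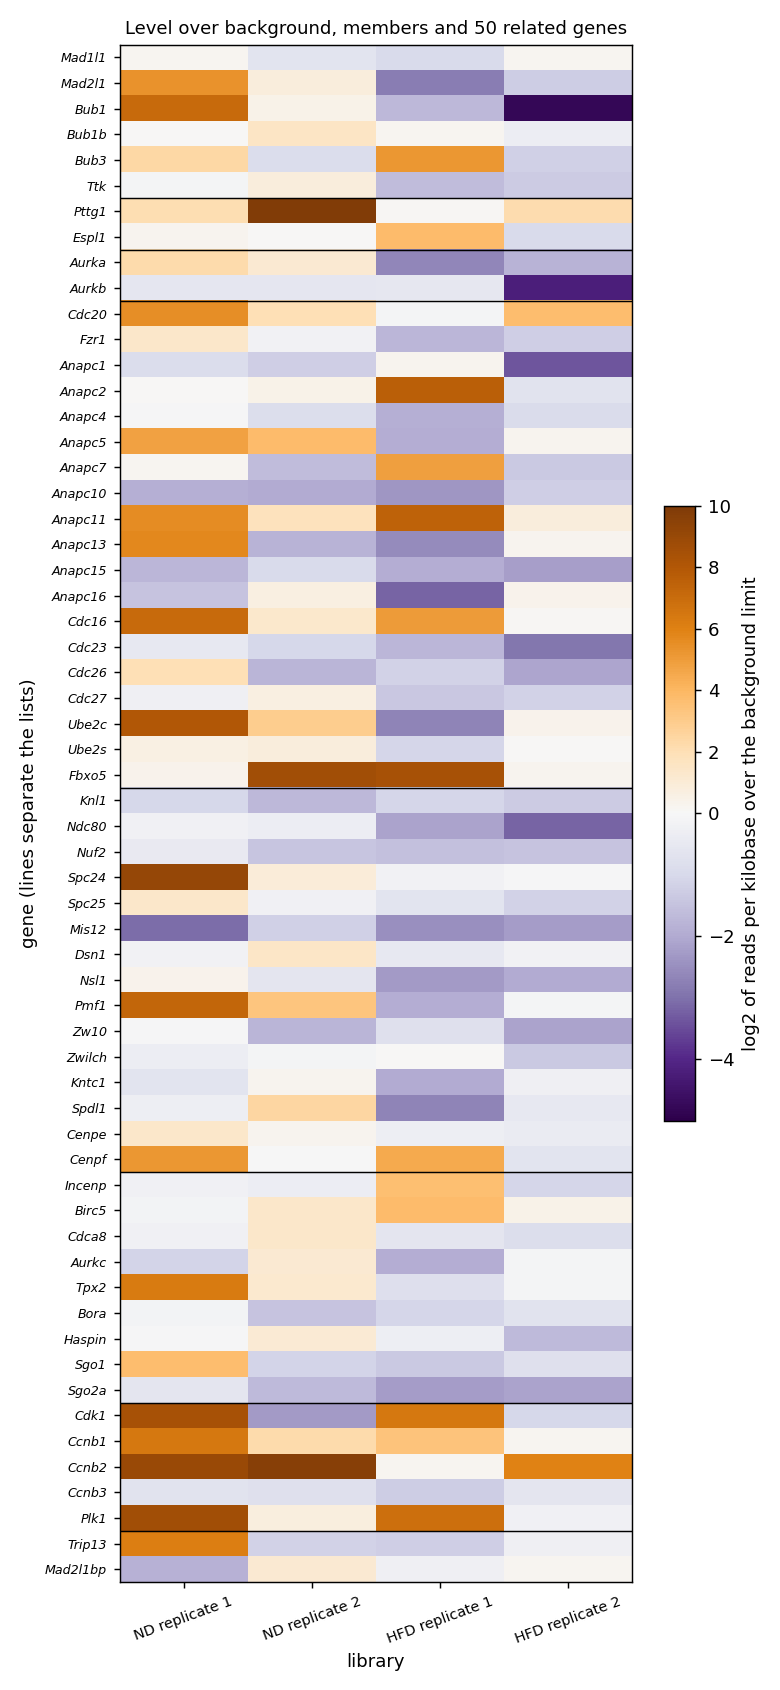
Level of the 10 genes and 50 related genes in each library as log2 of reads per kilobase over the library's background limit (colour, with separate slopes above and below 0), where lines separate the lists. The ND libraries have 8 and 7 of the 10 genes and 25 and 25 of the 50 related genes above 0, and the HFD libraries 4 and 2 of the 10 and 14 and 13 of the 50.

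The 50 related genes comprised the anaphase-promoting complex with its activators, ubiquitin-conjugating enzymes and inhibitor, the kinetochore, the partners of the Aurora kinases with the protectors of cohesin, the M-phase kinases and cyclins, and 2 genes that silence the checkpoint. Above background were 25, 25, 14 and 13 of them, 5 in all 4 libraries and 12 in none. Of the 49 tested (*Mis12* was filtered out), 36 had a fitted log2 fold change under 0, where 48.5% of all genes did, and 8 lay lower at an unadjusted p under 0.05 in edgeR, where 6.41% of all genes did (*Nsl1*, *Ndc80*, *Fzr1*, *Pmf1*, *Anapc5*, *Ube2c*, *Tpx2* and *Spc24*). None lay higher at that limit, none passed after adjustment, and the median was −0.77. By group, 4 of the 14 kinetochore genes tested, 3 of the 19 genes of the anaphase-promoting complex and 1 of the 9 Aurora partners and cohesin protectors lay lower at that p, and none of the 5 M-phase and 2 silencing genes did. Both HFD values lay below both ND values in CPM for 12 and above them for 2, where all genes tested had 13.4% and 13.9%. DESeq2 called 8 lower and 3 higher of the 28 to which it gave an adjusted p, beside 21.0% and 24.3% over all genes with one.

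The related genes with the smallest p among those without overlap were 2 kinetochore genes and an activator of the anaphase-promoting complex. *Nsl1*, of the Mis12 complex, had ND counts of 57 and 31 and HFD counts of 8 and 17 (log2 fold change −1.54, SE 0.42, unadjusted p = 0.00982 in edgeR). *Ndc80*, which holds the microtubule end, had 47, 47, 11 and 9 counts (−1.78, SE 0.57, unadjusted p = 0.0195) and was at background in all 4 libraries. *Fzr1*, which encodes Cdh1, a protein that keeps cyclin B low in prophase oocytes, had 97, 36, 10 and 24 counts (−1.70, SE 0.59, unadjusted p = 0.0275). Both *Nsl1* and *Fzr1* were above background in ND replicate 1 alone. In the other direction *Incenp* and *Knl1* had no overlap in CPM, but on the TMM scale used for the fold changes *Incenp* overlapped and *Anapc10* did not. *Incenp*, the scaffold of the Aurora B complex, had 32, 31, 390 and 26 counts (3.47, SE 1.61, unadjusted p = 0.0764), so most of its level lay in HFD replicate 1. *Knl1*, the kinetochore platform for Bub1 and Bub3, had 35, 24, 30 and 43 counts (0.65, SE 0.42, unadjusted p = 0.171), all at background. The adjusted p in edgeR was 0.537 for *Knl1* and 0.406 for the other 4 genes.

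The related genes with the highest mean RPKM repeated the uneven levels of *Pttg1* and *Bub1*. *Ccnb2*, a cyclin B, had 6455, 10829, 13 and 1204 counts and a mean of 389 RPKM. *Fbxo5*, which encodes Emi1, an inhibitor of the anaphase-promoting complex, had 22, 7221, 5054 and 30 counts and a mean of 214 RPKM. *Spc24*, a kinetochore gene, had 12111, 44, 17 and 31 counts and a mean of 144 RPKM, with 99.1% of its summed CPM in ND replicate 1. For *Ccnb2* both HFD values lay below both ND values, for *Fbxo5* each diet held a high and a low library, and for *Spc24* the difference lay in ND replicate 1. The log2 fold changes were −3.96 (SE 2.52), 0.19 (SE 3.08) and −7.61 (SE 3.03).

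Some reads may not be unique to the genes named. *Bub3*, *Mad1l1* and *Mad2l1* have processed pseudogenes with at least 90% identity over at least 150 bases of their transcripts. The copies of *Bub3* had 0 to 8 counts per library, that of *Mad1l1* 0 to 9 and those of *Mad2l1* 0 to 11. *Espl1* transcripts match 29 other genes at that identity, among them *Spc24*, over 150 to 167 bases each. Whether these matches fall on the same stretch of *Espl1* was not recorded. *Mad1l1* shares 37 exon bases with the antisense gene *Gm16121*, which had 4, 4, 7 and 21 counts, the last in the library where *Mad1l1* was highest, and the strand setting of the counting is not given in the sources used here.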

How the data were processed

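RNA-seq of E18.5 fetal oocytes was analysed in 2 ND and 2 HFD libraries. Per the labels and the study's methods, the authors used Trim Galore for trimming, HISAT2 for alignment to mm10 and featureCounts for counting, and the deposited values are raw counts per gene, a file for each library. The annotation release, the strand setting and the handling of multiply aligned reads are not given in the sources used here. GENCODE M21 (GRCm38) gave symbols, coordinates and lengths of exons, in which 260 of 55401 identifiers were absent.

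Diets were compared in R 4.3.3 with edgeR 4.0.16 (glmQLFit with legacy FALSE, glmQLFTest, TMM, filterByExpr, 19335 genes, Benjamini-Hochberg). Standard errors were obtained by dividing the absolute log2 fold change by the root of the F statistic. Fold changes are relative to TMM-scaled libraries, and CPM to the library total. DESeq2 1.42.0, limma-voom 3.58.1, other normalizations and filters, a replicate block and each library left out were alternatives. The functions were tested on simulated data. The named genes were all 10 members, the related genes with the smallest p in each direction (up to 3) without overlap of the diets in CPM, and the 3 with the highest mean RPKM. Members, lists and rules were chosen with earlier results of these data known. Bisulfite sequencing and imaging of the study were not used here.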

Additional observations from a re-analysis of the deposited data

How the results depend on the processing

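With each library left out in turn, genes called in edgeR stayed at 0 to 0 in both directions, members lower at an unadjusted p under 0.05 ranged from 1 to 3 (4 with all libraries), members higher from 0 to 1, members lower by sign from 6 to 9, related genes lower from 3 to 12 (8 with all) and related genes higher from 0 to 4. Log2 fold changes changed sign for *Mad1l1* (−0.19 to 0.65), *Bub1b* (−1.27 to 0.48), *Bub3* (−2.36 to 5.47), *Espl1* (−0.83 to 4.20) and *Aurkb* (−3.29 to 0.58).

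Members lower at that p numbered 2 with library totals in place of TMM, 2 in limma-voom and 1 in the legacy edgeR fit. With a minimum of 10 counts in every library, 1 of the 6 genes left was lower at that p and 3 by sign. Over all genes and both directions, limma-voom counted 750 at that p, against 2171 in the main edgeR fit. The share of all genes at that p is not given for the other settings or with a library left out. These counts therefore cannot be set against it there. DESeq2 put 2 members higher at that p when run on all genes and 0 when run on the filterByExpr genes. Related genes lower numbered 3 with library totals, 3 with that minimum, 1 in limma-voom, 4 in the legacy fit and 14 in DESeq2 on the filterByExpr genes, and related genes higher 3 in DESeq2 on either gene set. Genes called higher and lower were 1360 and 1179 in DESeq2, 1039 and 1063 on the filterByExpr genes, and 12 and 22 in the legacy fit. Library totals moved the median log2 fold change of all genes from 0.03 to 0.21 and the share under 0 from 48.5% to 41.2%. The cause of these differences was not tested.

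Deviations of same-numbered libraries correlated at 0.0112 over 19335 genes. With 2 libraries in each diet, this value cannot decide whether same-numbered libraries share a batch or litter, and the labels do not say. With the replicate block, edgeR had 2 members and 3 related genes lower at that p, and DESeq2 called 373 genes higher and 658 lower with 1 related gene higher at that p.

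With the maximum of the olfactory receptor genes as the limit, 5 members were above background in either ND library, 0 in HFD replicate 1 and 1 in HFD replicate 2. With more than 3 counts alone, all 10 were above it in both ND libraries and 9 and 8 in HFD replicates 1 and 2, so the diets differed less by this rule. Of 136 alternative log2 fold changes of members, 121 kept their sign and their side of an adjusted p of 0.05. In DESeq2 10 fell below that adjusted p, and 5 changed sign in other fits. Unadjusted p-values among the 121 did cross 0.05. That of *Mad2l1* in edgeR went from 0.0331 to 0.0523 with library totals, and that of *Ttk* from 0.0411 to 0.161.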

Other observations

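Genes of proliferating cells were also uneven between libraries. *Top2a*, a topoisomerase of dividing cells, had 2425 and 187 counts in the ND libraries, against 7047 and 74 in the HFD libraries. *Hmmr*, a spindle protein, had 36 and 33 counts against 6341 and 31, so that all but HFD replicate 1 were at background. *Mki67*, the usual marker of cycling cells, had 55, 83, 26 and 27 counts and was at background in all 4 libraries. *Ccna2* had 58, 142, 9 and 82 counts, *Kif11* 61, 51, 14 and 73, and *Prc1* 1147, 79, 1841 and 71. *Pcna* had 1129, 83, 5 and 4 counts, above background in both ND libraries and in neither HFD library. This is the pattern of *Mad2l1*, *Bub1* and *Aurka*, but *Pcna* was the only 1 of the 7 markers of proliferating cells to show it. Of protein-coding genes above background in at least 1 library, 10.9% showed it. *Gapdh*, a gene that every cell uses, had 5477, 92, 23 and 60 counts.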
